A study of Mus musculus with 8 samples.

Results

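Kupffer cells are the resident macrophages of the liver. They sit in the sinusoids, take up particles and dying cells, and are recognised in the mouse by lectins and scavenger receptors that few other cells carry. In hepatitis, monocytes enter from blood under the control of chemoattractants such as CCL2, and CSF1 acting through its receptor CSF1R keeps macrophages alive. RNA levels of 40 marker genes of these cells were compared between 2 groups of mouse liver, out of 21899 genes measured. The genes were taken by symbol, and each of the 40 matched 1 gene identifier. They comprised 8 resident Kupffer cell genes, 16 C1q and shared macrophage genes, 10 recruited monocyte genes, 4 lipid-associated macrophage genes and 2 genes of secreted regulators.

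All livers came from mice given concanavalin A (ConA), a lectin of the jack bean used to provoke T cell-driven hepatitis, and were sampled at 8 h. The genotype was WT in 4 libraries and P2X4R knockdown in the other 4, which the series description writes as P2X4R-/- and which are called deficient here. P2X4R, encoded by P2rx4, is an ATP-gated cation channel. The sources used here do not give how the gene was altered or the strain, age and sex of the mice, and livers without ConA were not analysed here. The libraries held 15445285 to 16604190 counted reads. P2rx4 was lower in every deficient library, with 286 to 516 reads against 692 to 906, and it fell to 44.2% of the wild-type level (95% interval 33.2% to 58.9%, edgeR adjusted p = 0.00481). Across 11380 genes that passed the expression filter, 1055 rose and 1209 fell in deficient livers at an adjusted p under 0.05 (edgeR's quasi-likelihood test with Benjamini-Hochberg adjustment), whereas with library size alone the split was 1731 and 843. Nothing in the labels ties a library to its own mouse, so p-values cover the spread between these samples, which may be technical.

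Of the 40 marker genes, 31 passed the expression filter. The test called 8 of the 31 (25.8%, against 19.9% of all genes tested). In deficient livers 7 of the 31 fell (22.6%, against 10.6% of all genes tested) and 1 rose (3.23%, against 9.27%). The genes that fell were Clec4f, Cd5l, Adgre1, Mrc1, Csf1r, Mertk and Csf1, and the gene that rose was Chil3. The median log2 fold change of the 31 was -0.30, beside -0.0015 over all genes tested. Groups did not overlap for 4 of them, all lower in deficient livers (12.9%, against 12.3% of all genes tested in that direction), and for 0 of them in the other direction (12.7% of all genes tested). In a whole liver, fewer cells of a type and less RNA per cell cannot be told apart.

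One library, wild type 1, stood apart in these genes. It held the highest level of the 8 libraries for 20 of the 31 tested genes, whereas it was the highest for 18.8% of all genes tested. Its level was more than 1.5 times the mean of the other wild-type libraries for 25 of the 31. Without it, 2 genes fell, Cd5l and Mertk (6.45% of the 31, against 9.14% of all genes tested), and 1 rose, Spi1 (against 7.29%). The median log2 fold change of the 31 was then -0.097, beside 0.019 over all genes tested. Leaving out some other libraries cost as many calls. Marker genes that fell numbered 2 without deficient 2, 1 without deficient 3 and 2 without wild type 2. All genes that fell numbered 1309, 649 and 987 in these fits. Wild type 1 also had the highest summed level of the 7 platelet and erythroid markers, 1334 CPM against 178 to 587 in the other wild-type and 209 to 356 in the deficient libraries. CPM are read counts scaled to library size after TMM scaling, which equalises libraries by their bulk of genes. Of the 6 platelet and erythroid genes tested, Ppbp and Itga2b fell (10.6% of all genes tested) and 0 rose (9.27%). Of the 7 on the list, 0 were without reads. Their part in the marker results was not tested.

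**Figure D1:**
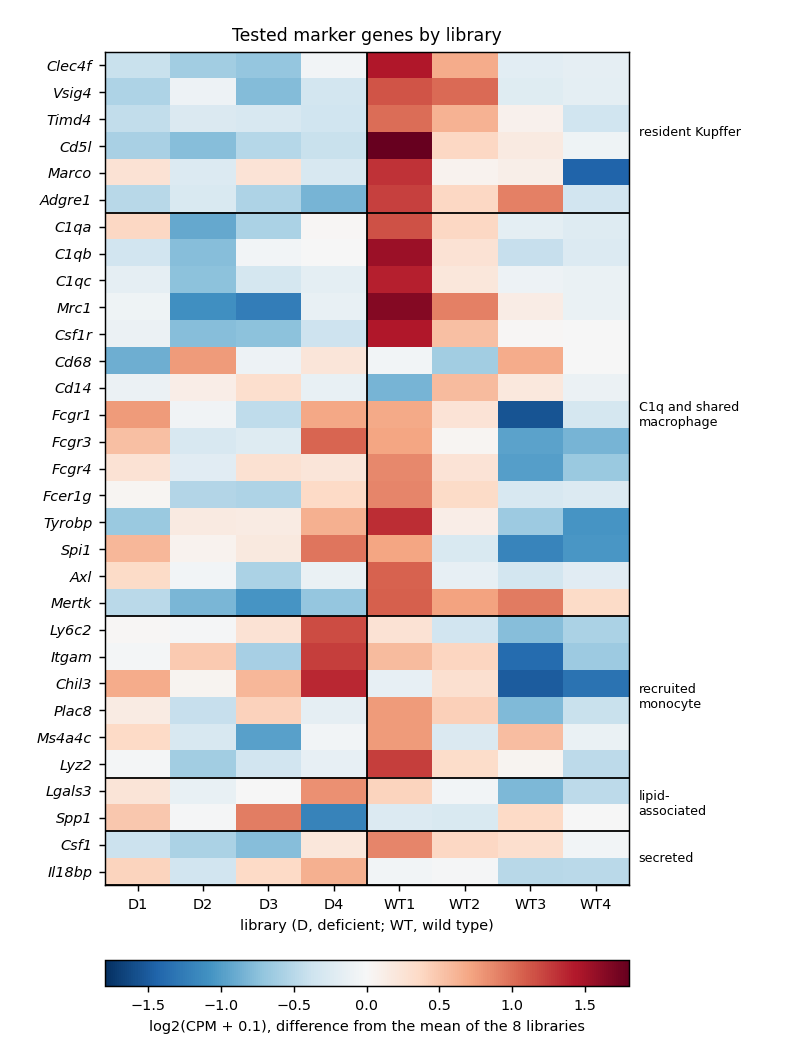
Levels of the 31 tested marker genes in each library, as the difference of log2(CPM + 0.1) from the gene's mean over the 8 libraries (colour), with deficient libraries left of the line and wild-type libraries right of it. The column of wild type 1 is the highest in 20 of the 31 rows.

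Estimates for the resident Kupffer cell genes were below 0 in 6 of 6 tested (50.1% of all genes tested), and 3 of them fell (10.6% of all genes tested). Marco, which did not pass, turned to 0.28 without wild type 1 and to 0.042 and 0.12 in limma on log2(FPKM + 1) and log2(FPKM + 0.1). Their median log2 fold change was -1.04, and -0.67 without wild type 1. Clec4f, which encodes a C-type lectin that marks Kupffer cells in the mouse, stood at 11.04, 9.44, 8.97 and 14.1 CPM in deficient libraries 1 to 4 and at 39.8, 23.3, 12.8 and 13.1 CPM in wild-type libraries 1 to 4. Deficient 4 lay above wild type 3 and 4, so the groups overlapped. Its log2 fold change was a fall by 1.03 (SE 0.33, edgeR adjusted p = 0.0488). Cd5l encodes a secreted scavenger protein of tissue macrophages that binds lipids and limits their death. Its levels were 6.82, 6.03, 7.17 and 7.76 CPM in deficient and 35.9, 13.3, 11.5 and 9.74 CPM in wild-type libraries. The groups did not overlap, and Cd5l fell by 1.34 (SE 0.36, edgeR adjusted p = 0.0255). Adgre1 encodes F4/80, the surface receptor most used to mark mouse macrophages, and fell by 1.24 (SE 0.38, edgeR adjusted p = 0.0394). It was detected at 1.27, 1.49, 1.21 and 0.98 CPM in deficient and 4.43, 2.39, 3.495 and 1.41 CPM in wild-type libraries, with wild type 4 inside the deficient range.

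The other resident genes tested did not pass. Vsig4, the complement receptor of the immunoglobulin family, averaged 1.07 ± 0.24 CPM (SD, n = 4) in the deficient and 2.25 ± 1.13 CPM in the wild-type group (edgeR adjusted p = 0.0898). Timd4, a phosphatidylserine receptor for apoptotic cells, was at 1.11 ± 0.07 and 1.96 ± 0.83 CPM (SD, n = 4, edgeR adjusted p = 0.141). Marco, a class A scavenger receptor, was the resident gene nearest to no difference, at -0.30 (SE 0.43), with 2.12 CPM in wild type 4 and 14.7 CPM in wild type 1. Cd163, the haemoglobin scavenger receptor, had 13 reads in all deficient and 43 in all wild-type libraries, and Folr2, a folate receptor of resident macrophages, had 7 and 0. Both were left out by the filter. The summed level of the 8 resident genes was 24.6 to 30.3 CPM in deficient libraries and 102, 51.3, 37.4 and 29.2 CPM in wild-type libraries 1 to 4. It varied little among the deficient livers and over a wide range among the wild-type livers, with wild type 4 inside the deficient range.

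Each of these resident calls was lost in some of the fits that left out a library. Without a deficient library the estimates were -1.20 to -0.94 for Clec4f and -1.34 to -1.16 for Adgre1, near those with all libraries. Without wild type 1 the estimate was -0.60 for Clec4f (edgeR adjusted p = 0.118), -0.98 for Adgre1 (edgeR adjusted p = 0.095) and -0.74 for Cd5l (edgeR adjusted p = 0.0275). Clec4f was also lost when deficient 1, 2, 3 or 4 was left out (edgeR adjusted p = 0.0869, 0.092, 0.12 and 0.0532) or wild type 2 (edgeR adjusted p = 0.0854). Adgre1 did not pass without any one of the deficient libraries (edgeR adjusted p = 0.0745, 0.05, 0.0873 and 0.09 for 1 to 4) or without wild type 2 or 3 (edgeR adjusted p = 0.0561 and 0.106). Cd5l did not pass without deficient 1 or 3 (edgeR adjusted p = 0.0537 and 0.062).

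**Figure D2:**
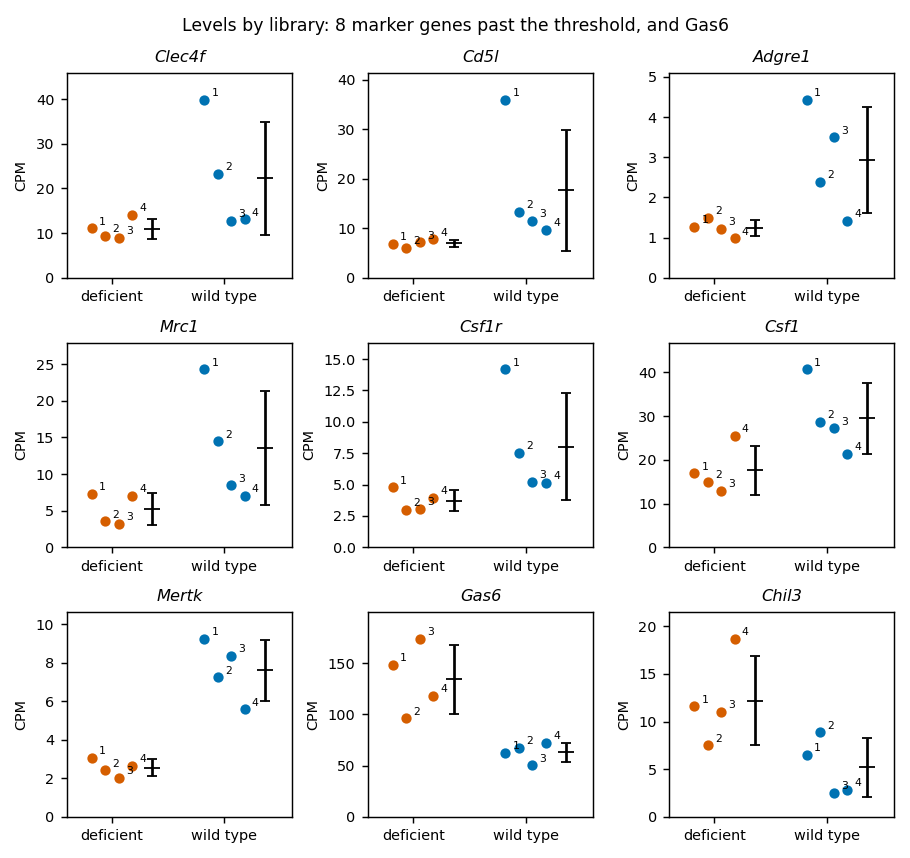
CPM of the 8 marker genes past the threshold, and of Gas6, in each library (points, numbered by library), with the mean and SD of 4 libraries beside each group. Mertk was between 2.02 and 3.08 CPM in deficient and between 5.58 and 9.24 CPM in wild-type libraries, and Gas6 lay the other way, with every deficient library above every wild-type library.

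Mertk gave the lowest estimate of the 31 and was the only one of the 8 called genes that passed under every alternative tried. It encodes a receptor tyrosine kinase of the TAM family (Tyro3, Axl, Mertk), through which macrophages bind and engulf dying cells by way of the bridging proteins Gas6 and protein S. Mertk levels were 3.08, 2.42, 2.02 and 2.64 CPM in deficient and 9.24, 7.24, 8.38 and 5.58 CPM in wild-type libraries. Deficient livers held 33.5% of the wild-type level (95% interval 23.3% to 48.1%, log2 fold change -1.58, SE 0.24, edgeR adjusted p = 0.00433), and the estimate was -1.49 without wild type 1 (edgeR adjusted p = 0.00965). Among wild-type libraries Mertk was 1.31 times as high in wild type 1 as the mean of the others, where Cd5l was 3.12 times as high.

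Most other TAM ligand and engulfment receptor genes did not pass. Of 7 tested, 1 rose and 0 fell (9.27% and 10.6% of all genes tested). The median log2 fold change was -0.06, which turned to 0.089 without wild type 1. The gene that rose was Gas6, which encodes a ligand of the TAM receptors, at 149, 96.3, 174 and 118 CPM in deficient and 62.2, 67.4, 50.4 and 71.97 CPM in wild-type libraries. The groups did not overlap, and the rise was 1.09 (SE 0.20, edgeR adjusted p = 0.00683). Axl, the TAM receptor that rises in inflammation, averaged 11.2 ± 2.91 CPM (SD, n = 4) in the deficient and 13.6 ± 7.27 CPM in the wild-type group and did not pass (edgeR adjusted p = 0.554). Its deficient level was 82.1% of wild type, with a 95% interval of 51.1% to 132%. Pros1, which encodes protein S, was at 62.7 ± 11.4 and 72.05 ± 19.03 CPM (SD, n = 4, edgeR adjusted p = 0.533). Tyro3, with 28 reads summed over the deficient and 8 over the wild-type group, was not tested.

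Both Csf1r, the receptor, and Csf1, its ligand, fell in deficient livers, and so did Mrc1. Csf1r was at 4.77, 2.98, 3.07 and 3.96 CPM in deficient and 14.2, 7.52, 5.21 and 5.13 CPM in wild-type libraries. The groups did not overlap, and Csf1r fell by 1.12 (SE 0.34, edgeR adjusted p = 0.0365). Hmgxb3 overlaps Csf1r on the opposite strand in the deposited table, and the use of strand in counting is not stated in the sources used. Reads of the stretch they share therefore cannot be told apart, and its extent was not measured. Csf1, made by endothelial and stromal cells as well as macrophages, was at 16.9, 14.9, 12.96 and 25.6 CPM in deficient and 40.7, 28.7, 27.2 and 21.3 CPM in wild-type libraries. Deficient 4 lay above wild type 4, and Csf1 fell by 0.75 (SE 0.24, edgeR adjusted p = 0.0487).

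Mrc1, which encodes the mannose receptor of Kupffer cells and of sinusoidal endothelial cells, was at 7.30, 3.54, 3.18 and 7.01 CPM in deficient and 24.3, 14.5, 8.44 and 7.05 CPM in wild-type libraries. Deficient 1 lay just above wild type 4, and Mrc1 fell by 1.37 (SE 0.40, edgeR adjusted p = 0.0339). Of 7 endothelial markers tested, 1 fell, the sinusoidal lectin gene Clec4g, and 0 rose (10.6% and 9.27% of all genes tested). Without wild type 1, Clec4g did not pass (edgeR adjusted p = 0.0507), so that 0 fell, and 1 endothelial marker rose (9.14% and 7.29% of all genes tested). The 8 endothelial markers summed to 43.2 to 69.0 CPM in deficient and 36.9 to 93.4 CPM in wild-type libraries, 0 of them were without reads, and their part in the fall of Mrc1 was not tested. Without wild type 1 none of Csf1r, Csf1 and Mrc1 passed, at -0.70, -0.56 and -0.94 (edgeR adjusted p = 0.0871, 0.11 and 0.0881). Csf1r was also lost without deficient 2, 3 or 4 or wild type 2 (edgeR adjusted p = 0.0723, 0.093, 0.0634 and 0.0603), nor Mrc1 without deficient 2 or 3 or wild type 2 (edgeR adjusted p = 0.0694, 0.0912 and 0.0641). For Csf1 these were deficient 1, 2 and 3 and wild type 2 and 3 (edgeR adjusted p = 0.0931, 0.0971, 0.124, 0.0788 and 0.087).

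C1qa, C1qb and C1qc encode the A, B and C chains of C1q, the recognition protein of the classical complement pathway, which in the liver is made by Kupffer cells. In the deposited table they are neighbours on the minus strand of chromosome 4, between 136607440 and 136626114. C1qa was at 14.5, 5.84, 7.52 and 11.3 CPM in deficient and 24.99, 14.6, 9.89 and 9.49 CPM in wild-type libraries. C1qb was at 8.99, 6.71, 11.1 and 11.4 CPM against 33.6, 13.8, 8.57 and 9.68 CPM. C1qc was at 7.66, 5.09, 6.83 and 7.58 CPM against 22.7, 9.91, 8.05 and 7.88 CPM. In all 3 genes wild type 1 was the highest library and deficient 2 the lowest. The groups overlapped for C1qa and C1qb and did not for C1qc, whose wild-type 4 lay just above deficient 1.

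None of the C1q chains passed the edgeR test (adjusted p = 0.25, 0.172 and 0.0901), at an unadjusted p of 0.114, 0.0658 and 0.0254, and DESeq2 did not call them either. The estimates were -0.59 (SE 0.35), -0.78 (SE 0.38) and -0.84 (SE 0.33), and -0.22, -0.17 and -0.35 without wild type 1. Hepatocytes express the C1 proteases C1ra and C1s1, the early components C2, C4b and C3 and the inhibitor gene Serping1. These gave 0 calls in 6 tested in edgeR, with 1 gene at an unadjusted p under 0.05. All 6 estimates were below 0 (50.1% of all genes tested), at -0.55 to -0.09, and all 6 were without wild type 1. Groups did not overlap for 3 of the 6, all lower in deficient livers (12.3% of all genes tested).

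RefSeq promoter windows of 300 bases, from 250 before to 50 after a gene's start on build GRCm38.p6, were held for 34 of the 40 genes. The genes with no window were C1qa, Adgre1, Csf1r, Cd14, Tyrobp and Spi1. The windows of C1qc (chr4:136892865-136893164, minus strand) and C1qb (chr4:136886151-136886450, minus strand) are shown as the neighbouring pair, that of Mertk (chr2:128698665-128698964, plus strand) as the gene with the most stable fall, and that of Chil3 (chr3:106167515-106167814, minus strand) as the gene that rose. Capitals mark a match to a searched motif, 5′ to 3′ on the gene's strand.
C1qc: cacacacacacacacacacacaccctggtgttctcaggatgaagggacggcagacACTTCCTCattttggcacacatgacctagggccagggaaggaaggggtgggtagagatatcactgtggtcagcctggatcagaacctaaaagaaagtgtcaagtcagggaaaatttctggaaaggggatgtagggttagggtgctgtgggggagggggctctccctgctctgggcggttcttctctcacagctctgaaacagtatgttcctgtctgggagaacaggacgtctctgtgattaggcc
C1qb: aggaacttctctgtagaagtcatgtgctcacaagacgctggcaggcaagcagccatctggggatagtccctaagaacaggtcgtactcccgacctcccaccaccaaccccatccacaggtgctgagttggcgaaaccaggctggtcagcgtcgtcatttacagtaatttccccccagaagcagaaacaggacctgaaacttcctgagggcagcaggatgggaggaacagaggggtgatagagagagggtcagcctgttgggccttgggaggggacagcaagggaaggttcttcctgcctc
Mertk: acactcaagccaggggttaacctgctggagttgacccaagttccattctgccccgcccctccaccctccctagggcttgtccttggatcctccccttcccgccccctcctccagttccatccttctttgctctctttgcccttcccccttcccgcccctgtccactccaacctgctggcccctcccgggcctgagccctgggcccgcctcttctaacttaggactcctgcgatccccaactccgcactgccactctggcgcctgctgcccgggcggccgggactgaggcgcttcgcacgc
Chil3: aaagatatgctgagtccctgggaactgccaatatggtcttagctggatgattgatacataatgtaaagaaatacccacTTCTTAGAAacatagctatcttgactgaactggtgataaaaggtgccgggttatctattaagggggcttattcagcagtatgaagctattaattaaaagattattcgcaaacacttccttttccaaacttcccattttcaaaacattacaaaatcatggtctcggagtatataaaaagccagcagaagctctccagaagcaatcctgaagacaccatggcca
Each window was searched on both strands for GAGGAAGT, the motif of PU.1, the lineage factor of macrophages that Spi1 encodes. It was in the windows of 5 of the 34 genes (C1qc, F13a1, Fcgr4, Ly6c2 and Spp1) and of 3.69% of 27025 genes. The match in C1qc, on the opposite strand, starts 195 bases before the gene's start. The STAT motif TTCNNNGAA was in 2, Chil3 and Fcgr1 (9.55% of all genes), with the match in Chil3 starting 172 bases before the start. The AP-1 motif TGACTCA was in 3, Cd68, Folr2 and Gpnmb (5.95%). TTGCGCAA, the C/EBP motif, and TCACGTGA, bound by MITF and TFEB, were in 0 of the 34 (0.207% and 1.12% of all genes). Of the windows shown, those of C1qc and Chil3 held 1 match each and those of C1qb and Mertk held 0.

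Most receptors and adaptors shared by macrophages, monocytes and neutrophils did not pass. Of the 15 C1q and shared macrophage genes tested, 3 fell (Mrc1, Csf1r and Mertk) and 0 rose (10.6% and 9.27% of all genes tested). The median log2 fold change was -0.28, and estimates were below 0 for 9 (50.1% of all genes tested). Without wild type 1 the median was -0.097 and 8 were below 0. Spi1 was at 8.21, 5.65, 6.07 and 10.6 CPM in deficient and 8.86, 4.43, 2.31 and 2.56 CPM in wild-type libraries. Wild type 1 lay within the deficient range and the other wild-type libraries below it. The estimate was 0.75 (SE 0.39, edgeR adjusted p = 0.201), and Spi1 passed without wild type 1 alone, at 1.29 (edgeR adjusted p = 0.0247). The activating Fc receptor genes Fcgr1, Fcgr3 and Fcgr4 and the adaptor gene Tyrobp, whose product is DAP12, each had wild type 1 as the highest and wild type 3 or 4 as the lowest of the wild-type libraries. Fcgr3, for example, was at 9.35, 5.22, 5.44 and 13.3 CPM in deficient and 10.5, 6.54, 3.23 and 3.53 CPM in wild-type libraries. Estimates were 0.37 (SE 0.47) for Fcgr1, 0.48 (SE 0.40) for Fcgr3, 0.10 (SE 0.35) for Fcgr4 and -0.10 (SE 0.49) for Tyrobp. Fcer1g, the gamma chain that carries the signal of these Fc receptors, was at -0.38 (SE 0.30). None of these 5 passed in edgeR (adjusted p = 0.402 to 0.909), and 0 had an unadjusted p under 0.05. Of 5 genes of their partners and signalling tested, among them the kinase gene Syk, 0 passed in edgeR, and 0 had an unadjusted p under 0.05.

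Cd68 and Cd14 did not pass (edgeR adjusted p = 0.928 and 0.981). Cd68, a lysosomal protein of all macrophages, was at 6.34, 20.2, 11.05 and 13.7 CPM in deficient and 11.4, 7.59, 18.7 and 11.7 CPM in wild-type libraries. Its deficient level was 104% of wild type with a 95% interval of 62.5% to 172%, and wild type 1 was not its highest library. Cd14, the co-receptor for endotoxin, which hepatocytes also make in the acute phase response, was at 878, 1022, 1166 and 859 CPM in deficient and 528, 1406, 1080 and 880 CPM in wild-type libraries. Wild type 1, the highest library for most macrophage genes, was the lowest for Cd14. Per length, Cd14 had a mean FPKM of 562 over the 8 libraries, against 32.1 for Spp1 and at most 11.9 for the other 38 genes. FPKM is the count scaled to gene length and library total. Of the 8 hepatocyte markers tested 1 fell, Cps1, and 0 rose (10.6% and 9.27% of all genes tested). The 8 markers summed to 87947 to 116050 CPM in deficient and 122675 to 137125 CPM in wild-type libraries, 0 of them were without reads, and their part in the levels of Cd14 was not tested.

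**Figure D3:**
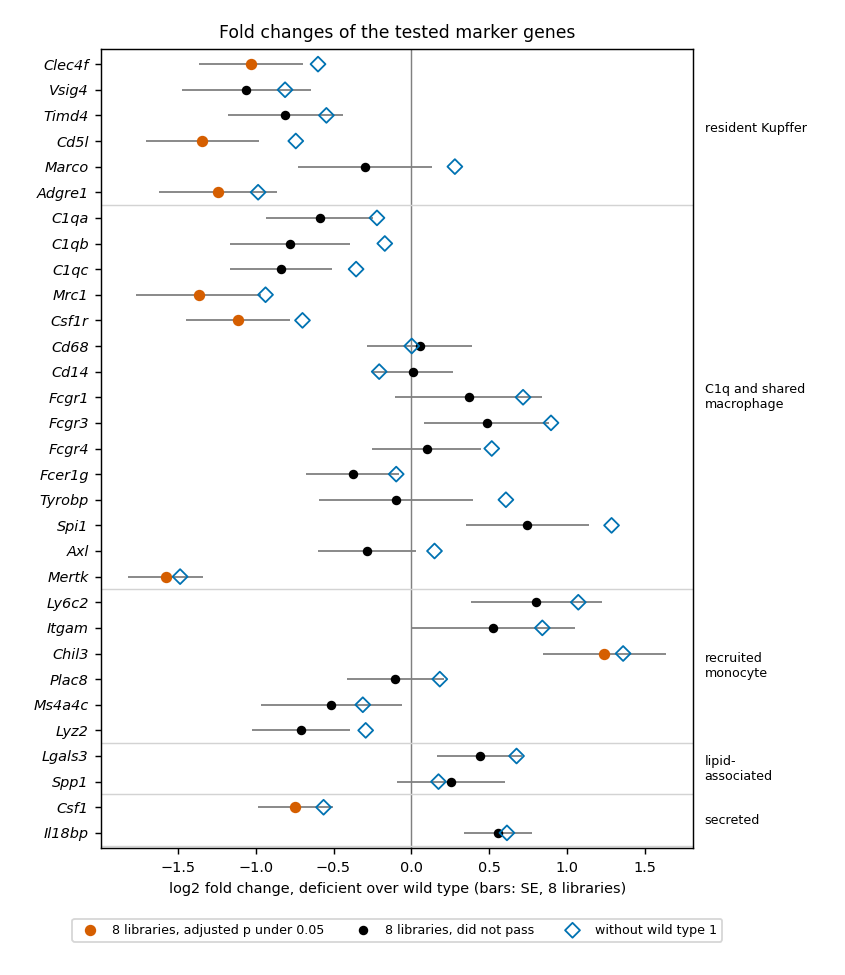
Log2 fold change, deficient over wild type, of the 31 tested marker genes by role, with SE bars (8 libraries), and the estimate without wild type 1 (diamonds). Mertk was at -1.58 and -1.49, whereas Clec4f was at -1.03 and -0.60 and Spi1 at 0.75 and 1.29.

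Recruited monocyte genes ran from a mean FPKM of 0.038 for Cx3cr1 to 11.4 for Plac8 over the 8 libraries, and 6 of 10 passed the filter. Of these, 1 rose and 0 fell in edgeR (9.27% and 10.6% of all genes tested). At an unadjusted edgeR p under 0.05, 1 was lower, and DESeq2 and limma-voom also gave 0 falls. The median log2 fold change was 0.21, and 0.51 without wild type 1. Chil3, which encodes the secreted chitinase-like protein Ym1 of monocytes and other myeloid cells, was at 11.6, 7.52, 11.05 and 18.7 CPM in deficient and 6.52, 8.86, 2.51 and 2.82 CPM in wild-type libraries. Wild type 2 lay above deficient 2, so the groups overlapped. Chil3 rose by 1.24 (SE 0.40, edgeR adjusted p = 0.0461). The call was lost without deficient 1, 3 or 4 (edgeR adjusted p = 0.0717, 0.0813 and 0.133) or without wild type 1, 3 or 4 (edgeR adjusted p = 0.0592, 0.116 and 0.0951), where its rise was 0.94 to 1.36. Chil4, a close copy of Chil3, had 44 reads in deficient 1 and 0 to 9 in the other libraries, against 38 to 325 for Chil3.

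The other monocyte genes gave no call. Ly6c2, the Ly6C antigen of inflammatory monocytes, averaged 1.66 ± 0.78 CPM (SD, n = 4) in the deficient and 0.95 ± 0.35 CPM in the wild-type group (edgeR adjusted p = 0.197), with 2.82 CPM in deficient 4. Ly6c1, a near-identical neighbour, held 25 to 97 reads per deficient and 12 to 30 per wild-type library, so the count of Ly6c2 is uncertain. Itgam, the CD11b integrin chain of monocytes and neutrophils, ran from 0.87 CPM in deficient 3 to 3.39 CPM in deficient 4 and from 0.46 CPM in wild type 3 to 2.09 CPM in wild type 1. Plac8, found in several kinds of blood leukocyte, was at -0.10 (SE 0.31) and Ms4a4c, a tetraspan membrane protein, at -0.52 (SE 0.45). Lyz2, the lysozyme of myeloid cells, was at 9.84, 6.52, 7.98 and 9.13 CPM in deficient and 24.2, 12.7, 10.5 and 7.31 CPM in wild-type libraries. Wild type 1 was its highest library, as for the 6 resident genes tested, and it did not pass (-0.71, SE 0.32, edgeR adjusted p = 0.132).

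Ccr2, the CCL2 receptor through which monocytes are called, had 3 to 9 reads per deficient and 5 to 16 per wild-type library, and Cx3cr1, the fractalkine receptor of patrolling monocytes, 0 to 6 and 3 to 4. Both were left out by the filter. F13a1, a transglutaminase of monocytes and platelets, had 15, 8, 10 and 14 reads in the deficient and 4, 5, 3 and 3 in the wild-type libraries. The groups did not overlap for F13a1, which was left out by the filter and so not tested. Ms4a6c, with 37 reads over the deficient and 28 over the wild-type group, was the other monocyte gene left out, and Ms4a7, a shared macrophage gene of the same family, had 15 and 19. No gene left out by the filter had more than 22 reads in a library.

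Neutrophil markers were high and low in some of the same libraries as Chil3, Itgam and the Fc receptors. Of 9 tested, 2 rose (Cxcr2 and Mmp8; 9.27% of all genes tested rose) and 0 fell, and 0 of the 12 were without reads. All 9 estimates were above 0, with a median log2 fold change of 0.94. Without wild type 1, 4 of the 9 rose (against 7.29% of all genes tested) and the median was 1.38. Their summed level was 101, 95.6, 99.7 and 182 CPM in deficient and 100.2, 84.4, 32.8 and 27.2 CPM in wild-type libraries. Deficient 4 was the highest library of this list and of Ly6c2, Itgam and Chil3, and wild type 3 and 4 were the lowest of the list and of Chil3. The part of neutrophils in the values of these genes was not tested.

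**Figure D4:**
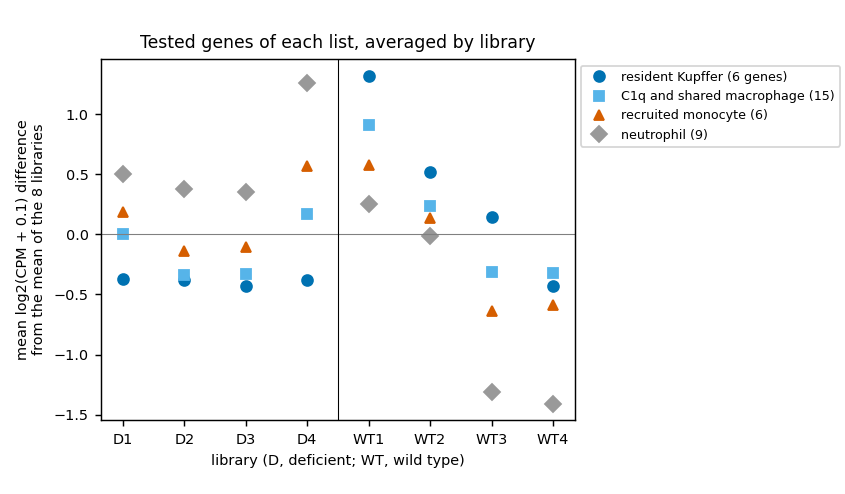
Mean difference of log2(CPM + 0.1) from each gene's mean over the 8 libraries, for the tested genes of 4 lists (symbols) in each library. Resident genes were at -0.43 to -0.37 in every deficient library and at 1.32, 0.52, 0.14 and -0.43 in wild type 1 to 4, while neutrophil genes were at -1.31 and -1.41 in wild type 3 and 4.

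Of the lipid-associated macrophage genes 2 of 4 were tested and 0 passed in edgeR, with 0 at an unadjusted p under 0.05. Lgals3, which encodes galectin-3, averaged 20.8 ± 6.62 CPM (SD, n = 4) in the deficient and 15.3 ± 5.65 CPM in the wild-type group (edgeR adjusted p = 0.284). Spp1, osteopontin, which bile duct cells also make, ran from 20.9 CPM in deficient 4 to 91.7 CPM in deficient 3, a range that enclosed the wild-type libraries at 39.9 to 62.3 CPM. Trem2, the lipid receptor of these cells, had 5 reads in all deficient and 6 in all wild-type libraries, and Gpnmb, a lysosomal glycoprotein, 49 and 26. Il18bp, the secreted decoy of interleukin-18, was at 22.2, 13.3, 21.6 and 26.4 CPM in deficient and 16.3, 16.7, 11.9 and 11.99 CPM in wild-type libraries. Deficient 2 lay among the wild-type libraries. The estimate was 0.56 (SE 0.22, edgeR adjusted p = 0.0898), and Il18bp passed without deficient 2, at 0.72 (edgeR adjusted p = 0.0221). Il18bp overlaps Numa1 on the opposite strand, so reads of the stretch they share are uncertain in the same way as for Csf1r.

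Related genes outside the 40 were read from lists of the same pathways. Of 12 other Kupffer cell identity genes tested, 1 fell and 0 rose (10.6% and 9.27% of all genes tested). Estimates were below 0 for 9 and above 0 for 3. Without wild type 1, 1 fell and 1 rose (9.14% and 7.29% of all genes tested). The gene that fell was Hmox1, the haem-degrading enzyme, at 251, 727, 478 and 435 CPM in deficient and 1240, 853, 1870 and 1187 CPM in wild-type libraries (-1.45, SE 0.31, edgeR adjusted p = 0.0114). Its highest library was wild type 3, whereas wild type 1 was the highest for the 6 resident genes tested. Spic, the factor for iron-recycling macrophages, did not pass, at 1.95 ± 1.39 and 5.21 ± 3.49 CPM (SD, n = 4, edgeR adjusted p = 0.07), and neither did Nr1h3, which encodes LXR alpha (edgeR adjusted p = 0.474). Of 5 colony-stimulating factor genes tested, 0 rose and 1 fell (9.27% and 10.6% of all genes tested), Csf3, the neutrophil growth factor G-CSF. It was at 4.65, 10.6, 3.24 and 10.2 CPM in deficient and 41.1, 39.6, 42.8 and 32.6 CPM in wild-type libraries (-2.44, SE 0.32, edgeR adjusted p = 0.0037). Il34, the other ligand of CSF1R, did not pass (edgeR adjusted p = 0.535), and Csf3r, the receptor of G-CSF, rose without wild type 1 (1.44, edgeR adjusted p = 0.0295) but did not pass with it (0.75, edgeR adjusted p = 0.276).

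Of 8 monocyte attraction genes tested, 4 fell and 0 rose (10.6% and 9.27% of all genes tested), namely Ccl2, Ccl7, Ccl3 and Ccl4, whereas the receptor gene Ccr1 did not pass (edgeR adjusted p = 0.717). Ccl2 was at 53.8, 72.9, 49.7 and 97.7 CPM in deficient and 185, 169, 158 and 162 CPM in wild-type libraries, with no overlap and little spread among the wild-type livers. Of 10 macrophage activation genes tested, 3 fell and 1 rose, beside the same 10.6% and 9.27% of all genes. Estimates were below 0 for 9 of the 10, and wild type 1 was the highest library for 9. The falls were in Il6, in Ptgs2, the inducible cyclooxygenase, and in Nos2, the inducible nitric oxide synthase, which was at 268 ± 105 CPM in wild-type and 144 ± 34.1 CPM in deficient livers (SD, n = 4; -0.90, edgeR adjusted p = 0.0378). The rise was in Arg1, at 1874 ± 298 against 1238 ± 165 CPM (SD, n = 4), which hepatocytes express as an enzyme of the urea cycle. Without wild type 1 neither Nos2 nor Arg1 passed (edgeR adjusted p = 0.0873 and 0.0567). Nos2 was also lost without deficient 1, 3 or 4 or wild type 3 or 4 (edgeR adjusted p = 0.0878, 0.071, 0.0822, 0.0836 and 0.0597), Arg1 without deficient 1 or 4 or wild type 3 or 4 (edgeR adjusted p = 0.0696, 0.0828, 0.0819 and 0.0526), and Il6 and Ptgs2 without deficient 3 (edgeR adjusted p = 0.051 and 0.0539).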

How the data were processed

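Liver RNA was sequenced in 8 libraries, 4 per group, named here by genotype and by the last digit of each title. The deposited table holds, per the file headers, read counts per gene and the authors' FPKM, which recomputation from counts and listed lengths matched within 6.96e-05%. Per the submitters' processing notes, cutadapt and HISAT2 2.0.5 were used. The sources used here do not give the counting program, strand, annotation or genome build, so gene positions are as the table lists them and were not joined to GRCm38. The listed gene length is the authors', in bases, per the file headers.

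Counts were tested with edgeR 4.0.16 (R 4.3.3) on TMM-scaled libraries after filterByExpr at its defaults, without covariates, with Benjamini-Hochberg adjustment over the 11380 genes tested. The SE is the estimate divided by the square root of the F statistic, and 95% intervals use the t distribution. The test was checked on simulated counts. A count of 0 allows up to 3 reads, or 0.181 to 0.194 CPM. Intervals and floors cover counting error or spread between libraries only. Replicates differed beyond counting noise (chi-square per degree of freedom 21.5 to 109). Alternatives were library size alone, DESeq2 1.42.0, no filter, limma 3.58.1 on log2(FPKM + 1) or log2(FPKM + 0.1) where 4 libraries reached an FPKM of 0.5, limma-voom, a replicate block, and leaving out 1 library at a time. The 40 genes, the lists and the rule for named genes (all 40, P2rx4, and up to 4 called genes of each other list by smallest p) were chosen with earlier results of these data known. Genes named beyond the rule were chosen after their values were seen. Trac and Ighm had no match in the table and were not analysed here.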

Additional observations from a re-analysis of the deposited data

Results flagged for a closer look

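Of 64 groups of 4 libraries checked (31 marker genes and P2rx4 in each genotype), 5 held a library far from the other 3. Chance flags about 1 in 20 groups. Wild type 1 was high for Cd5l (35.9 CPM, against 9.74 to 13.3 in the other wild-type libraries), C1qc (22.7 CPM, against 7.88 to 9.91) and Axl (24.5 CPM, against 9.30 to 10.5). Deficient 4 was high for Ly6c2 (2.82 CPM, where the other 3 ranged from 1.18 to 1.45). Deficient 2 was low for Fcgr4 (5.53 CPM, against 7.41 to 7.69).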

How the results depend on the processing

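The number of the 31 tested marker genes that fell was 7 in the main test, 2 with library size alone, 1 in limma on FPKM with either pseudocount and 4 with limma-voom. The number that rose was 1, and 2 with library size alone. Of all 11380 genes, 1209 fell in the main test, 843 with library size alone and 1286 with limma-voom. In limma on log2(FPKM + 1) and log2(FPKM + 0.1), 820 and 771 of 9645 genes fell. With library size alone and in limma on FPKM, the share of marker genes that fell was not above that of all genes. Resident falls went from 3 to 1 with library size alone or limma-voom and to 0 in limma on FPKM. Falls of C1q and shared genes went from 3 to 1 with library size alone or limma on FPKM. Adgre1, Ly6c2, Itgam and Ms4a4c did not reach the FPKM filter and were not tested in limma on FPKM. With each library left out in turn, marker genes that fell numbered 1 to 7 and those that rose 0 to 2, resident falls 0 to 3, C1q and shared falls 1 to 3, monocyte rises 0 to 1, and all genes higher 454 to 1079 and lower 528 to 1309. All genes higher numbered 1731 with library size alone and 1586 in limma on log2(FPKM + 0.1), where 771 were lower. These settings raised the median of all genes by 0.14 and 0.13 on the log2 scale. Both settings scale by library total and leave out the TMM factors. These factors ran from 1.008 to 1.077 in deficient and from 0.918 to 1.001 in wild-type libraries. Why the factors differed between the groups was not tested.

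The replicate numbers were not taken as pairs, since same-numbered libraries deviated together with a correlation of 0.13, -0.11, 0.07 and -0.11 and none correlated best with its own number. With the replicate block 4 marker genes fell and 0 rose, 1 resident gene fell and 0 monocyte genes rose.

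Mertk kept its call in 15 of 15 alternatives (-1.69 to -0.72). Over the 31 genes, 369 of 457 results under an alternative kept direction and side of the threshold, 58 were no longer past it and 3 newly past it. The other 27 changed sign, all in genes that did not pass. Marco was at 0.042 and 0.12 in limma on log2(FPKM + 1) and log2(FPKM + 0.1), and -0.59 to 0.28 with a library left out. Tyrobp was at 0.20 and 0.28 in the same tests, 0.021 with library size alone, 0.15 with limma-voom, 0.15 with the replicate block, and -0.35 to 0.61 with a library left out. Plac8 was at 0.12 and 0.14 in limma on FPKM, 0.039 with library size alone, and -0.32 to 0.18 with a library left out. Cd68 was at -0.0017 with the replicate block, and the ranges with a library left out were -0.25 to 0.33 for Cd68, -0.21 to 0.25 for Cd14, -0.13 to 0.52 for Fcgr4, -0.45 to 0.15 for Axl and -0.070 to 0.52 for Spp1. The 9 genes left out by the filter, at 0 to 22 reads a library, were not tested in the main test.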

Other observations

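Some genes of the related lists that were left out by the filter had uneven reads between the groups, and were chosen here after their values were seen. Ly6g, the defining surface antigen of neutrophils, had 53 reads in all deficient and 5 in all wild-type libraries, Trem3, a DAP12-coupled receptor of myeloid cells, 34 and 4, and Retnla, a marker of alternative macrophage activation, 25 and 4. Chil1, a relative of Chil3 outside the 40 genes, had 199, 85, 151 and 252 reads in deficient and 101, 66, 42 and 38 in wild-type libraries. Ms4a6d, a relative of Ms4a6c, had 68, 49, 37 and 72 reads in deficient and 154, 55, 36 and 45 in wild-type libraries. Ly6g, Trem3 and Retnla, left out by the filter, were not tested, and test results for Chil1 and Ms4a6d are not reported here.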
